A study of Homo sapiens
Mus musculus with 3 samples.

Results

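Expression of 9 mouse genes that fold proteins in the endoplasmic reticulum, or in 1 case shape it, was followed across the mouse wells of 3 single-cell libraries. The members were named for their role, by a rule that uses no measured value but set with earlier results of these data known, and they were found by their Ensembl identifiers, which are 9 of the 27998 mouse genes listed in each read table. All 9 were listed in every read table and had reads in every library. They are Hspa5 (ENSMUSG00000026864), Hsp90b1 (ENSMUSG00000020048), Calr (ENSMUSG00000003814), Canx (ENSMUSG00000020368), P4hb (ENSMUSG00000025130), Pdia3 (ENSMUSG00000027248), Pdia4 (ENSMUSG00000025823), Pdia6 (ENSMUSG00000020571) and Ckap4 (ENSMUSG00000046841).

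The libraries were made on the ICELL8 cx, a nanowell instrument in which wells with a single imaged cell are selected and the transcripts of each well receive their own barcode. Every library was loaded from a suspension of Jurkat and TALL-104, which are human T-cell lines, and EL4, a mouse T-cell line, and IVA12, a mouse B-cell line and hybridoma, in equal parts and with no treatment named in the labels. The group 3'DE (the standard protocol of the instrument, which reads transcript ends) had 2 libraries. A single library formed the group 3'DE-UMI, whose altered protocol takes the cDNA off the chip, removes leftover primers ahead of amplification and thereby lets unique molecular identifiers (UMIs) be counted. Nothing states that the 3'DE libraries are independent cultures beyond their separate mixtures, and each mouse line is 1 line, so p-values measure the spread between these libraries only. The 3'DE-UMI library shared its cell mixture with 3'DE library 2 and not with 3'DE library 1, so that a difference between protocols and a difference between mixtures cannot be fully told apart.

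Proteins bound for the cell surface or for secretion enter the endoplasmic reticulum unfolded. Chaperones hold them there, lectins retain glycoproteins until their fold is complete, and protein disulfide isomerases make and exchange the bonds between cysteines. Plasma cells, which secrete antibody, are known for an enlarged endoplasmic reticulum, and the unfolded protein response raises the transcription of many of these genes when unfolded protein builds up.

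Values of the 3 libraries are given throughout in 1 order, 3'DE library 1, then 3'DE library 2, then 3'DE-UMI. The mouse wells numbered 922, 773 and 700. They fell into 2 clusters, found without the 9 genes. Adding the 9 genes to the clustering left all 2395 wells in the same cluster. Mouse cluster 1 had 474, 498 and 470 wells, and mouse cluster 2 had 448, 275 and 230. The clusters were not named after a cell line, because no table pairing the other mouse identifiers with symbols was at hand, and the defining markers of EL4 and IVA12 could not be checked. Between 160 and 202 well barcodes of mouse wells were found in both libraries of a pair. The tables held 35581264, 109702878 and 44883618 reads in all. Summed mouse reads ran from 8729959 to 40221287 per library and cluster, and median depth ran from 20289 to 36855 reads per well. Levels are given as reads per 1000000 mouse reads (RPM) of a library and cluster. Both protocols count transcript ends, so no correction for transcript length was made. Exact intervals cover counting error only, and since reads are copies of molecules, those of read counts leave out the spread from copying. The edgeR intervals of log2 differences measure the spread between the sums of the libraries.

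As a group the 9 genes took a larger share of the mouse reads in cluster 2. This sum weighs most on Hspa5 and Hsp90b1, the members with the highest levels in both clusters. Pdia3 went the other way in every library. In cluster 1 they made up 0.462%, 0.444% and 0.467% of the reads. In cluster 2 they made up 0.574%, 0.685% and 0.733%. The shares of the clusters did not overlap, and the log2 ratio of cluster 2 to cluster 1 was 0.31, 0.63 and 0.65. On this scale the median mouse gene was higher in cluster 2 as well, by a log2 ratio of 0.15, 0.29 and 0.31. The median well held 0.434%, 0.403% and 0.447% in cluster 1 and 0.529%, 0.565% and 0.722% in cluster 2. Single wells ranged widely, up to 2.07% in cluster 1 and 4.67% in cluster 2. After each well was thinned to 5000 mouse reads, the median well showed 6, 5 and 4 of the 9 genes in cluster 1 and 6, 6 and 6 in cluster 2.

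The level of a folding gene ranged over more than an order of magnitude among the members. In cluster 1 the order by mean level was Hspa5, Hsp90b1, Canx, Pdia6, Pdia3, Calr, P4hb, Pdia4 and Ckap4. The library ranges of Hspa5 and Hsp90b1 overlapped there, as did those of Canx, Pdia6 and Pdia3, and Pdia4, at 42.7 to 241, spanned all of P4hb and part of Calr. In cluster 2 the order was Hsp90b1, Hspa5, Canx, Pdia6, Calr, P4hb, Pdia4, Pdia3 and Ckap4. The ranges of Hsp90b1 (1740 to 2436) and Hspa5 (1644 to 1694) did not overlap in cluster 2. From Canx down to Pdia3, each gene there overlapped the next in the order, and Ckap4 lay below all levels of Pdia3. Among all genes with reads in a sum, the level of Hsp90b1 ranked between 39 and 91 in cluster 2 and between 149 and 168 in cluster 1.

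**Figure D1:**
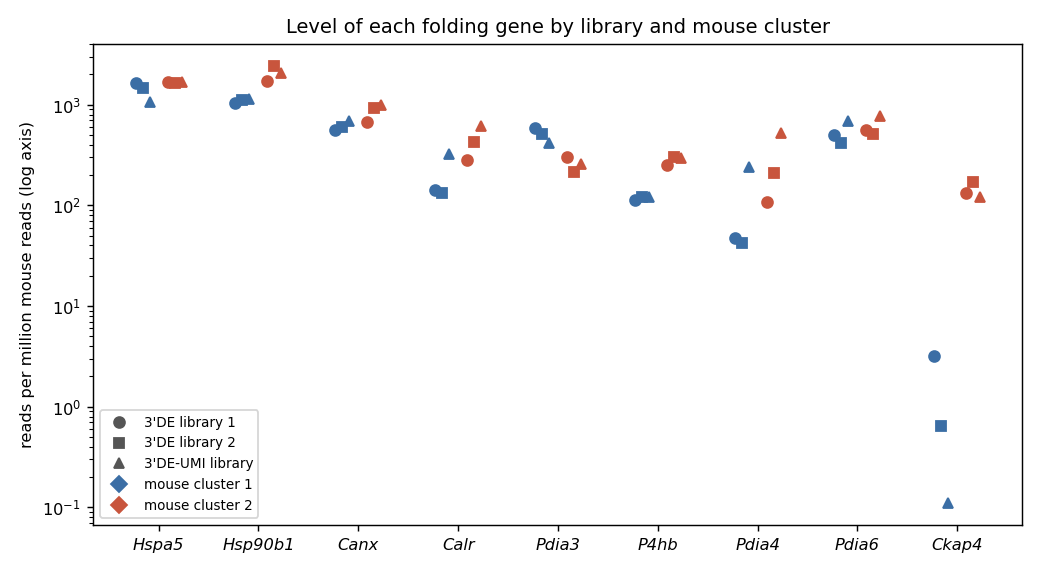
Level in RPM (log axis) of each folding gene in the 3 libraries (marker shape) and both mouse clusters (colour), with 1 point per library and cluster. Ckap4 is the gene with the widest gap, at 0.11 to 3.16 in cluster 1 and 120 to 173 in cluster 2, and Pdia3 is the gene whose cluster 1 points lie above its cluster 2 points.

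The first comparison asked how the folding genes differ between the mouse clusters. In edgeR's quasi-likelihood test on the 6 sums with the library as a block, 5 of the 9 genes were higher in cluster 2 and 1 was higher in cluster 1 at an adjusted p under 0.05. Of all 11263 mouse genes tested, 20% were higher in cluster 2 and 20.6% were higher in cluster 1, so both directions were common. Among the 10292 genes that had not been used to cluster the wells the percentages were 19.2 and 20.4. The median log2 difference was 0.69 over the 9 members and 0.03 over all genes tested. edgeR's scaling placed cluster 2 lower than RPM scaling did, by a median log2 shift of -0.22 over genes with at least 10 RPM in every sum, and the differences below are relative to that scaling unless RPM is named. Since the clusters were made from other genes of the same wells, they are no independent labelling of the cells. Without the library as a block, P4hb, Pdia3 and Ckap4 still passed, and the edgeR adjusted p was 0.144 for Hsp90b1, 0.136 for Calr and 0.286 for Pdia4.

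Of the general chaperones, Hsp90b1 was higher in cluster 2 and Hspa5 was not called. Hspa5 encodes BiP, the HSP70 chaperone of the endoplasmic reticulum and the repressor of the stress sensors in its membrane. Its level in cluster 1 was 1633, 1475 and 1066, and in cluster 2 it was 1694, 1644 and 1686. The cluster 2 levels lay just above all cluster 1 levels, at 1.04, 1.11 and 1.58 times within a library. The log2 difference was 0.06 ± 0.18 (SE, 95% interval -0.34 to 0.47, edgeR adjusted p = 0.798).

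Hsp90b1 encodes GRP94, the HSP90 chaperone of the compartment. GRP94 transcripts stood at 1035, 1125 and 1130 in cluster 1 and at 1740, 2436 and 2061 in cluster 2. The clusters did not overlap, and cluster 2 exceeded cluster 1 by 1.68, 2.17 and 1.82 times in the 3 libraries. The log2 difference was 0.69 ± 0.16 (SE, 95% interval 0.31 to 1.06, edgeR adjusted p = 0.0112). Without 3'DE library 2 the log2 difference was 0.60 ± 0.24 (SE, edgeR adjusted p = 0.0905). The call was thus lost at a similar estimate, with a larger SE and fewer sums.

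Of the genes of the glycoprotein folding cycle, Calr was higher in cluster 2, Pdia3 was higher in cluster 1 and Canx was not called. Calr encodes calreticulin, the soluble lectin that binds glycoproteins with a trimmed sugar chain. Calreticulin transcripts stood at 144, 133 and 321 in cluster 1 and at 281, 424 and 617 in cluster 2. The ranges overlapped across libraries because the 3'DE-UMI level of cluster 1 exceeded the lowest cluster 2 level, but within each library cluster 2 was higher, by 1.96, 3.18 and 1.92 times. The difference was 0.97 ± 0.20 on the log2 scale (SE, 95% interval 0.51 to 1.43, edgeR adjusted p = 0.00569).

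Canx encodes calnexin, the lectin of the same cycle that is anchored in the membrane. Cluster 1 had 563, 604 and 684, and cluster 2 had 672, 936 and 995. Cluster 2 was higher in each library, by 1.19 to 1.55 times, and the ranges overlapped. The log2 difference was 0.25 ± 0.16 and its 95% interval of -0.12 to 0.62 included 0 (edgeR adjusted p = 0.254).

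Pdia3 encodes ERp57, the oxidoreductase that works on glycoproteins held by calnexin and calreticulin. Cluster 1 had 581, 517 and 415, and cluster 2 had 305, 215 and 259. It was the member with higher levels in cluster 1 in every library, by 1.91, 2.41 and 1.61 times, and the clusters did not overlap. The log2 difference was -1.19 ± 0.18 (SE, 95% interval -1.61 to -0.76, edgeR adjusted p = 0.00146), lower than that of all but 18.7% of genes tested.

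Of the other disulfide isomerases, P4hb and Pdia4 were higher in cluster 2 and Pdia6 was not called. P4hb encodes protein disulfide isomerase itself, which is also a subunit of prolyl 4-hydroxylase. Its level in cluster 1 was 114, 122 and 121, and in cluster 2 it was 250, 299 and 297. The clusters did not overlap, and cluster 2 was 2.19, 2.46 and 2.46 times cluster 1. The libraries differed little, with the highest at 1.06 times the lowest in cluster 1 and 1.2 times in cluster 2. The log2 difference was 1.02 ± 0.17 (SE, 95% interval 0.63 to 1.40, edgeR adjusted p = 0.00203).

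Pdia4 encodes ERp72, an isomerase with several active sites. The gene had levels of 47.3, 42.7 and 241 in cluster 1 and of 109, 212 and 519 in cluster 2. The levels overlapped across libraries, since the 3'DE-UMI level of cluster 1 lay above both 3'DE levels of cluster 2. Within each library cluster 2 was higher, by 2.3, 4.97 and 2.15 times. On the log2 scale the difference was 1.31 ± 0.26 (SE, 95% interval 0.72 to 1.90, edgeR adjusted p = 0.0045).

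Pdia6 encodes P5, an isomerase known to associate with BiP. In cluster 1 it stood at 502, 419 and 689, and in cluster 2 at 559, 510 and 777. Cluster 2 was higher by 1.11, 1.22 and 1.13 times in RPM, and the log2 difference was -0.02 ± 0.16 in edgeR's scaling (95% interval -0.39 to 0.35, adjusted p = 0.934), so that its direction depended on the scaling.

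Ckap4 encodes CLIMP-63, a membrane protein that spaces the sheets of the endoplasmic reticulum and links them to microtubules, and it is neither a chaperone nor an isomerase. Its level in cluster 1 was 3.16, 0.65 and 0.11, from 42, 26 and 2 reads, and in cluster 2 it was 131, 173 and 120, from 1147, 2665 and 1221 reads. The ratio of the levels was 41.6 (exact 95% counting interval, 30.6 to 58.0), 267 (182 to 409.8) and 1085 (299.7 to 8970.1). These intervals take each read as an independent count, although reads are copies of molecules and share wells. They leave out the spread from copying and between wells, and are too narrow for a ratio of molecules. The reads of cluster 1 came from few wells, and a single well held 19.0%, 30.8% and 100% of them in the 3 libraries. The fitted log2 difference was 7.05 ± 0.67 (SE, 95% interval 5.51 to 8.59, edgeR adjusted p = 0.000136), which depends on how the lowest counts are treated. In UMIs, cluster 1 had 0 of 1562308 mouse UMIs, with an exact 95% upper limit of 0.0236 per 10000. Cluster 2 had 121 of 931340, or 1.30 per 10000 (exact 95% interval, 1.08 to 1.55). Against a floor of 3 UMIs in cluster 1, which is 0.0192 per 10000, the level in cluster 2 was 67.7-fold higher. That fold is a point value and not a lower limit.

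Hspa5, Hsp90b1, P4hb and Ckap4 had RPM values in the 3 libraries of cluster 2 that all lay above those of cluster 1, as 25.9% of all genes tested did. Pdia3 was the member with the opposite arrangement, found in 17.1% of genes tested. In RPM cluster 2 was the higher cluster within every library for 8 of the 9 members, against 41.5% of all genes tested, and cluster 1 was for 27.2% of them. On edgeR's scaling 7 of the 9 members had a log2 difference above 0. The number of 8 was also found with the mean over wells in place of summed reads, and with UMIs for the 3'DE-UMI library.

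**Figure D2:**
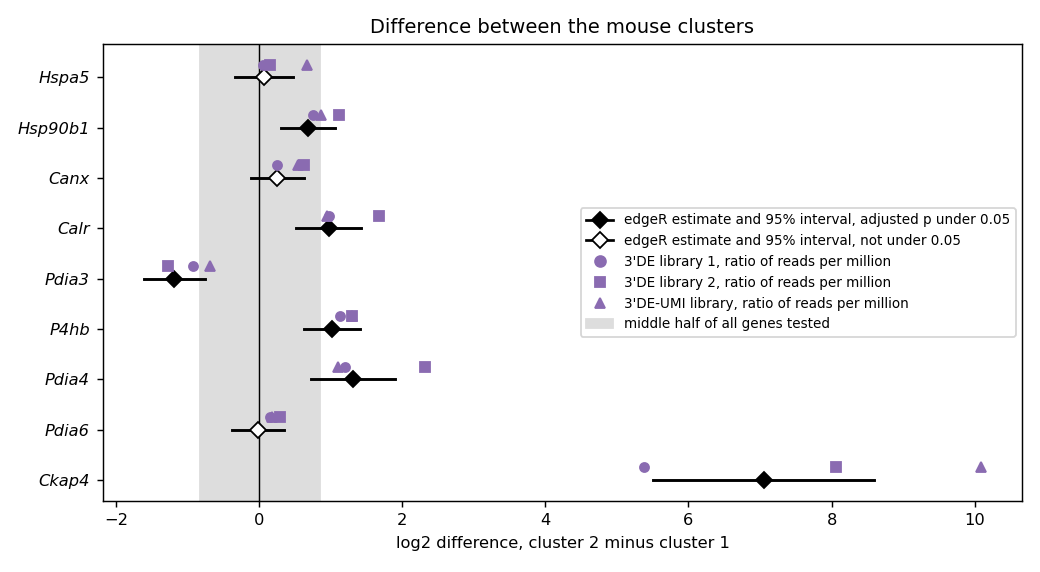
Log2 difference of each folding gene between the mouse clusters, cluster 2 minus cluster 1. Diamonds with lines are edgeR estimates with 95% intervals (filled where the adjusted p was under 0.05), purple markers above them are the ratios of RPM in each library, and the grey band is the interquartile range over all genes tested. Ckap4 lies far to the right at 7.05, and Pdia3, at -1.19, is the called member left of 0.

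The second question was in how many wells each gene was seen. Every well with enough depth was thinned at random to 5000 mouse reads, and mouse reads in human wells served as the background. Wells called human could hold just under 10% mouse reads, so a mouse cell was not excluded in each of them. In 3'DE library 1 the 533 human wells held 331235 mouse reads at a median of 36, so these reads were unevenly spread. The share of thinned wells was higher in cluster 2 in every library for 7 of the 9 genes, with Pdia3 and Hspa5 as the exceptions. Of all 11263 genes tested, 39.5% were seen in a higher share of thinned wells of cluster 2 in every library and 25% in a higher share of cluster 1. The number of members was 7 at 2000 reads per well and 5 at 10000. Hsp90b1 was detected in 95.4%, 93.1% and 80.3% of thinned wells of cluster 1 and in 98.4%, 97.0% and 96.0% of cluster 2. Hspa5 was detected in 97.8%, 94.1% and 73.7% of cluster 1 and in 98.1%, 89.7% and 82.6% of cluster 2. In 3'DE library 2 the share for Hspa5 was thus lower in cluster 2, although its level was higher there.

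Calr, P4hb and Pdia4 were seen in fewer wells. Calr was detected in 41.8%, 33.1% and 44.1% of cluster 1 wells against 67.0%, 70.1% and 71.9% of cluster 2 wells, and Pdia4 in 15.7%, 12.6% and 29.2% against 36.8%, 37.2% and 50.9%. These shares were higher in cluster 2 by more than their counting intervals in every library. Pdia3 was detected in 86.7%, 76.4% and 45.8% of cluster 1 wells against 64.9%, 43.6% and 35.7% of cluster 2 wells. P4hb was detected in 36.6%, 28.0% and 15.8% of cluster 1 wells against 57.8%, 53.8% and 42.0% of cluster 2 wells. Its level in cluster 1 was nearly equal in the 3 libraries, and the share of wells was lowest in the 3'DE-UMI library. That library also had the fewest genes per well, with medians of 1254.5 in cluster 1 and 1637.5 in cluster 2 against 2298 to 2974.5 in the 3'DE libraries, and the part of this in the shares was not tested. Without thinning P4hb was seen in 64.1%, 54.8% and 23.8% of cluster 1 wells and in 82.6%, 68.4% and 53.5% of cluster 2 wells.

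Ckap4 in cluster 1 was seen in about as few wells as in the human wells. It was detected in 7 of 459 thinned wells (1.53%), in 0 of 478 and in 0 of 456. The exact 95% upper limits of the latter pair were 0.769% and 0.806%. Without thinning the shares were 3.59%, 3.21% and 0.21%. Human wells had a Ckap4 read in 1.5%, 2.69% and 0.54% of wells, at a median of 36, 1010 and 206 mouse reads per well against median depths of 28428.5, 36855 and 29910 in cluster 1. In cluster 2 it was detected in 35.6% (exact 95% interval, 31.0 to 40.3), 41.5% (35.1 to 48.1) and 24.6% (19.1 to 30.7) of thinned wells. For the other members human wells had a read in 0.18% to 47.3% of wells, the highest for Canx in 3'DE library 2, below the thinned share of either mouse cluster in the same library.

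**Figure D3:**
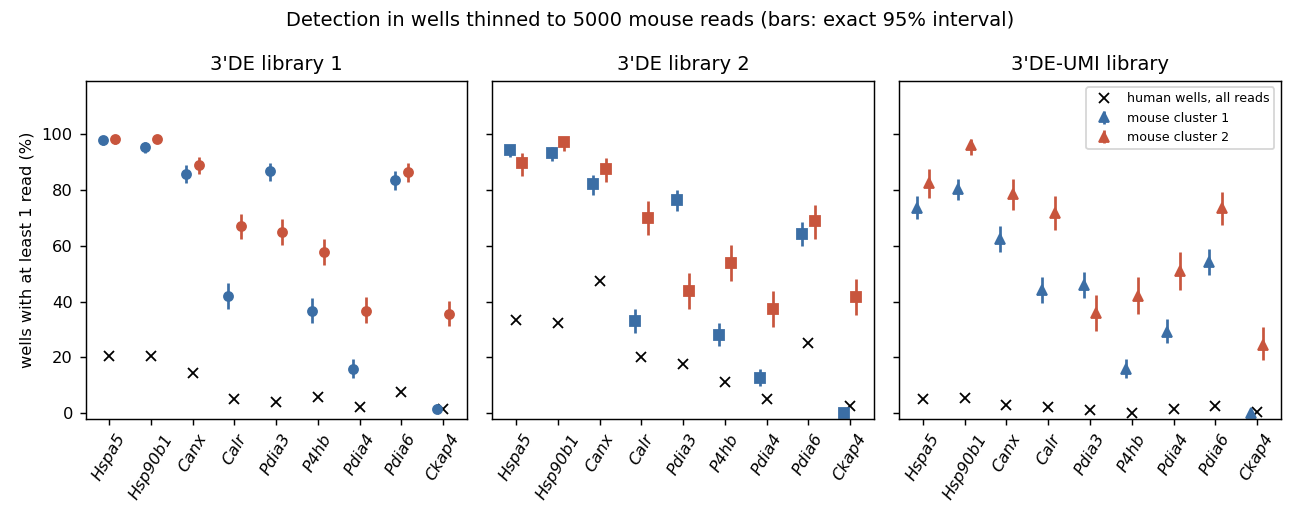
Percentage of mouse wells with at least 1 read of each folding gene after thinning to 5000 mouse reads, by library and cluster, with exact 95% intervals for counting error; crosses give the percentage in human wells with all their mouse reads. The Ckap4 points of cluster 1 sit beside the crosses, at 0% to 1.53%, and those of cluster 2 sit between 24.6% and 41.5%.

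The third comparison asked how the folding genes were measured by each protocol. In cluster 1, the 3'DE-UMI level exceeded the 3'DE levels at an adjusted p under 0.05 in edgeR for 2 of the 9 genes, as it did for 4.60% of the 11791 genes tested, and it was lower for 7.75% of them. With 1 residual degree of freedom, this fit takes the spread of the single 3'DE-UMI library to equal that of the 3'DE pair. Pdia4 was 5.10 times its level in 3'DE library 1 and 5.65 times its level in 3'DE library 2, which came from the same mixture, whereas the 3'DE libraries differed from each other by a log2 ratio of -0.15. Its log2 difference was 2.28 ± 0.34 (SE, edgeR adjusted p = 0.000652). Calr was 2.24 and 2.41 times its 3'DE levels, with a log2 difference of 1.08 ± 0.32 (SE, edgeR adjusted p = 0.0378, 0.0121 to 0.0675 over the alternatives).

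Hspa5 and Pdia3 had lower levels in the 3'DE-UMI library than in either 3'DE library in cluster 1, and neither passed the adjustment. The log2 difference of Hspa5 was -0.68 ± 0.31 (SE, edgeR adjusted p = 0.158) and that of Pdia3 was -0.54 ± 0.33 (SE, edgeR adjusted p = 0.289). Hsp90b1, Canx and P4hb had log2 differences between -0.10 and 0.09. That of Pdia6 was 0.44 ± 0.32 (SE, edgeR adjusted p = 0.382). Ckap4, with its few reads, had -4.18 ± 1.88 (SE, edgeR adjusted p = 0.156). In all, 4 members had an unadjusted p under 0.05.

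In cluster 2, 0 of the 9 genes passed in edgeR, 1 had an unadjusted p under 0.05, and DESeq2 called 1. Over the 11627 genes tested, 0.774% were called higher and 1.63% lower in the 3'DE-UMI library. The gene with the low unadjusted p was again Pdia4, at 4.78 times its level in 3'DE library 1 and 2.45 times its level in 3'DE library 2. Its log2 difference was 1.51 ± 0.50 (SE, edgeR adjusted p = 0.0779, 0.0436 in DESeq2). Calr was 2.19 and 1.45 times its 3'DE levels (log2 difference 0.61 ± 0.55, SE, edgeR adjusted p = 0.626). The 3'DE libraries themselves differed more in cluster 2 than in cluster 1 for Pdia4, at a log2 ratio of 0.97 for library 2 over library 1.

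**Figure D4:**
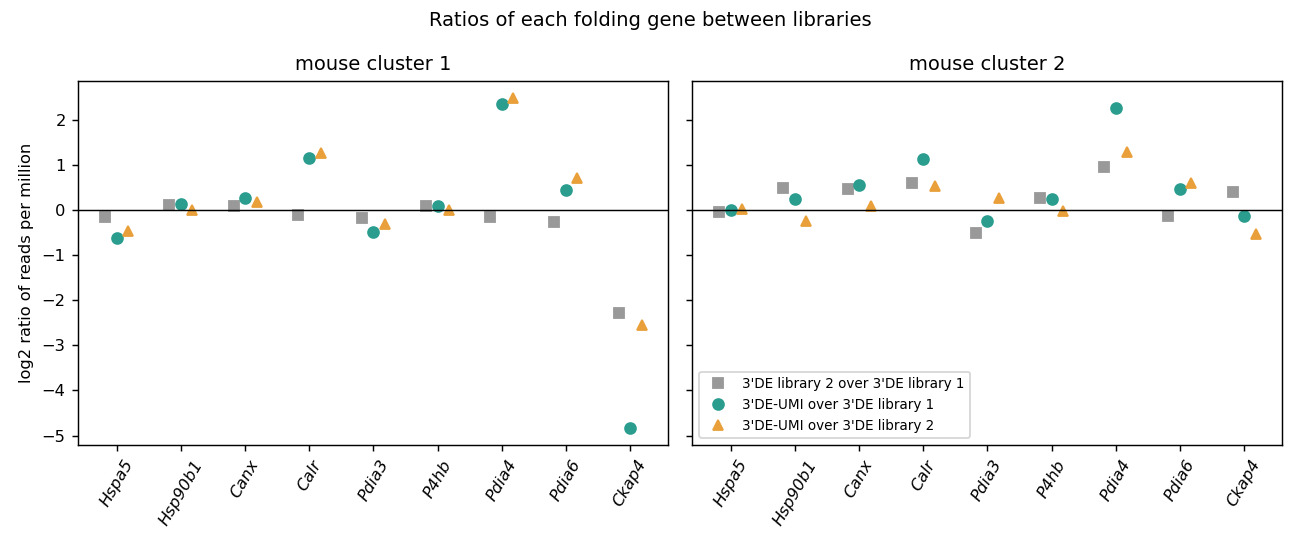
Log2 ratio of RPM between pairs of libraries for each folding gene, in mouse cluster 1 (left) and mouse cluster 2 (right); grey squares compare the 3'DE libraries with each other, and coloured markers compare the 3'DE-UMI library with each of them. Pdia4 and Calr lie above 0 for the 3'DE-UMI library in both clusters, up to 2.50 for Pdia4, and the low points of Ckap4 in cluster 1 rest on 42, 26 and 2 reads.

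The difference between the clusters was also tested for dependence on the protocol. Of 13242 genes, 2.16% passed this interaction test in either direction, and 1 of the 9 members did. That was Ckap4, with a log2 interaction of 3.22 ± 0.86 (SE, edgeR adjusted p = 0.0145, 0.0137 to 1 over the alternatives), and it rested on the 42, 26 and 2 reads of cluster 1. Pdia4 had a log2 interaction of -0.76 ± 0.38 (SE, edgeR adjusted p = 0.387), and the other 7 had adjusted p-values of 0.665 and above.

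The UMI table gave the same quantities in molecules. In cluster 1 the levels per 10000 mouse UMIs, with exact 95% counting intervals, were 7.76 for Hspa5 (7.33 to 8.21), 10.4 for Hsp90b1 (9.92 to 10.9), 3.73 for Calr (3.43 to 4.04) and 3.42 for Pdia3 (3.14 to 3.73). Cluster 2 had 12 for Hspa5 (11.3 to 12.7), 18.8 for Hsp90b1 (17.9 to 19.7), 6.25 for Calr (5.75 to 6.78) and 2.39 for Pdia3 (2.09 to 2.73). These intervals cover only the counting error of UMIs pooled over the wells of 1 library, and do not test a difference between clusters. With UMIs in place of reads for this library, the log2 difference of Hspa5 over the 3 libraries was 0.01 (edgeR adjusted p = 0.963). The order of Hspa5 and Hsp90b1 in cluster 1 was thus Hsp90b1 first in UMIs, as in the reads of that library and unlike the reads of both 3'DE libraries. P4hb had 0.87 UMIs per 10000 in cluster 1 and 2.27 in cluster 2, and Pdia4 had 1.65 and 3.34. Canx and Pdia6 had 5.4 and 4.49 in cluster 1 and 7.74 and 5.39 in cluster 2.

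The ratio of reads to UMIs differed among the members. Reads and UMIs were counted by separate pipelines, so the ratio is not strictly the number of reads behind a UMI. In cluster 2, for example, Hsp90b1 had a UMI in 223 wells and a read in 222. The part of the pipelines in the ratios was not tested. Over all mouse genes the ratio was 11.6 reads per UMI in cluster 1 and 10.9 in cluster 2. Pdia4 had 16.9 and 17.0 reads per UMI, Pdia6 had 17.8 and 15.8 and Hspa5 had 15.9 and 15.4, all above that ratio. Calr was below it, at 9.99 and 10.8. With UMIs in place of reads for the 3'DE-UMI library, the log2 difference of Pdia4 between protocols in cluster 1 was 1.80 (edgeR adjusted p = 0.00996), that of Calr was 1.35 (adjusted p = 0.0341), and that of Pdia6 was -0.12, on the other side of 0. In cluster 2 the log2 difference of Pdia4 was 0.98 with UMIs (edgeR adjusted p = 0.509), against 1.51 with reads.

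The fourth question was how the folding genes vary from well to well. In the 3'DE-UMI library each well was thinned to 1000 mouse UMIs, which kept 403 wells of cluster 1 and 209 of cluster 2, and the variance of the UMIs per well was divided by their mean. A Poisson distribution gives a ratio of 1. Hspa5 had a ratio of 1.38 in cluster 1 and 1.68 in cluster 2, higher than 91.0% and 98.6% of the mouse genes with at least 0.25 UMIs per thinned well (547 and 588 genes, medians 1.10 and 1.06). Hsp90b1 had 1.27 and 1.40, higher than 85.6% and 95.1% of those genes. These were also the members with the most UMIs per thinned well. Hspa5 had means of 0.79 and 1.27 and Hsp90b1 of 1.09 and 2.15, against 0.58 and 0.78 for Canx, the next highest. The genes compared were not matched by mean, and the part of the level in these ratios was not tested. Wells without an Hspa5 UMI made up 49.9% of cluster 1 and 38.3% of cluster 2, against 45.4% and 28.0% in a Poisson distribution of the same mean.

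The other folding genes with at least 0.25 UMIs per thinned well had ratios near 1. Canx had ratios of 1.05 and 1.05, Calr had 1.06 and 1.06 and Pdia6 had 1.07 and 1.05 in clusters 1 and 2. Pdia3 had 0.93 and 1.08, and in cluster 2 P4hb had 0.88 and Pdia4 had 1.05. The 0.93 of Pdia3 in cluster 1 was above 2.74% of genes and the 0.88 of P4hb in cluster 2 above 2.89%, at the low end of the range. In reads thinned to 5000 per well, the median well of cluster 2 had 7, 6 and 6 Hspa5 reads, the 95th percentile was 22, 22.4 and 21.9, and the highest well had 87, 125 and 90. In cluster 1 the median was 7, 5 and 3, the 95th percentile was 20, 18 and 20, and the highest well had 62, 28 and 74. The highest counts were thus lower in cluster 1 in each library, but they are single wells. Relative to its lower median, the tail of cluster 1 was not shorter in the 3'DE-UMI library. Pairs of cells of the same species in a well were not detected by the species filter, and their part in these tails was not tested.

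**Figure D5:**
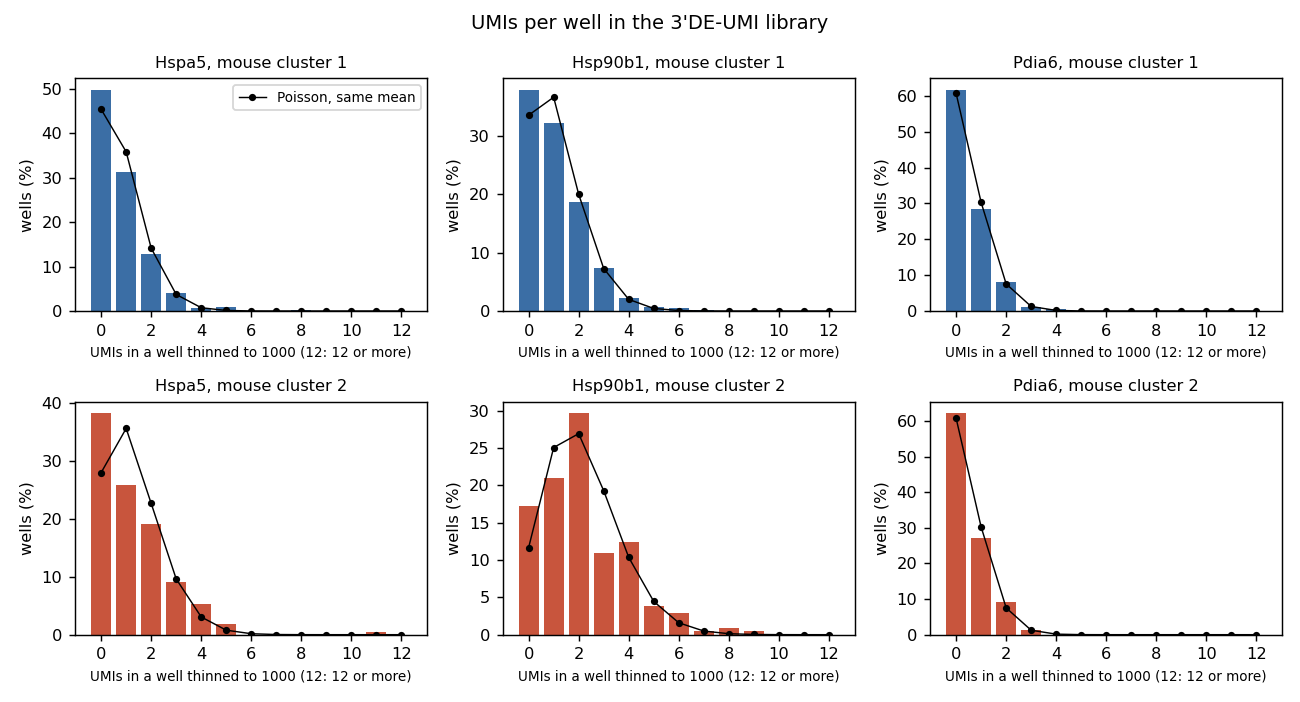
Percentage of wells (bars) by number of UMIs of Hspa5, Hsp90b1 and Pdia6 in wells of the 3'DE-UMI library thinned to 1000 mouse UMIs, in mouse cluster 1 (top) and mouse cluster 2 (bottom), with a Poisson distribution of the same mean (black line); the last bar holds wells with 12 or more. Hspa5 has more wells at 0 than the line in both clusters (49.9% against 45.4%, and 38.3% against 28.0%), and Pdia6 follows the line closely.

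Across thinned wells of the same cluster and library, the folding genes were weakly related to each other. The highest mean Spearman's rho over the libraries was that of Hspa5 with Hsp90b1, at 0.26 in cluster 2 (0.19 to 0.29) and 0.16 in cluster 1 (0.13 to 0.17). In cluster 2 it was followed by Hspa5 with Pdia6 (0.18) and Hspa5 with Pdia4 (0.18). The median over the pairs of members was between 0.05 and 0.12 in every library and cluster. These wells share a library and their counts are small, so the values are given as a description. After thinning, the summed reads of the 9 genes had a rho with the original depth of the well between -0.18 and 0.17. Single members reached 0.27 (Pdia6) and 0.24 (Pdia3) in cluster 1 of the 3'DE-UMI library and 0.26 (Pdia3) and 0.22 (Hsp90b1) in cluster 2 of 3'DE library 2, as large as the pair values above, and the part of depth in those was not tested.

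Genes were then ranked by their mean rho with the summed reads of the members, each member being compared with the other 8. Among 1283 genes with at least 0.5 reads per thinned well in every library, Hsp90b1 (0.29), Hspa5 (0.29) and Pdia6 (0.26) ranked 1 to 3 in cluster 2, and all 9 members were among the first 54. In cluster 1 Hspa5 and Hsp90b1 (both 0.18) ranked 1 and 2 of 1136 genes, of which 7 are members, since Pdia4 and Ckap4 were too low there. In cluster 2 of the 3'DE-UMI library, however, Ckap4 was at -0.003 and Pdia3 at -0.056. The highest gene that is no member was ENSMUSG00000032575 in cluster 2 (0.22, rank 4) and ENSMUSG00000015656 in cluster 1 (0.17, rank 3). In the 3 libraries the former had 0.28, 0.26 and 0.11 and the latter 0.27, 0.20 and 0.04, each lowest in the 3'DE-UMI library. ENSMUSG00000032575 was also the second such gene in cluster 1 (0.12, rank 5), with 0.25, 0.06 and 0.05 in the 3 libraries.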

How the data were processed

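The deposited tables held raw counts per gene and well barcode. Per the file headers and the methods, the authors made the read counts with mappa (STAR 2.7.0b) and the UMI counts with the Drop-seq tools (STAR 2.4.2a) on a combined reference (Cell Ranger 1.2.0, hg19 and mm10). Whether they were made after the downsampling described in the methods is not known. The 9 members and the lists were chosen with earlier results of these data known.

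Wells with at least 1000 reads and 200 genes were kept, and those with 10% or more reads of the other species were left out as mixed (180, 175 and 36 wells). No doublet caller was run. Mouse wells were clustered with scanpy 1.11.5 without the 9 genes (10000 counts per well, log, 1000 variable genes, 20 components, 15 neighbours, Leiden resolution 0.1). Counts were summed per library and cluster and tested with edgeR 4.0.16 (filterByExpr, TMM, quasi-likelihood, two-sided, Benjamini-Hochberg over all mouse genes tested, threshold 0.05), checked on simulated data. The design had planned classes named after EL4 and IVA12. Without markers these were replaced by clusters, whose numbers come from the clustering and stand for neither line. Assignment by markers and the comparison with other folding and stress-response genes were not done, for want of symbols. Intervals of counts and shares are 95% and exact, and those of log2 differences are the 95% intervals of edgeR. The fold against a count of 0 used a floor of 3 counts. All 9 members were named, with the genes most alike by rho.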

Additional observations from a re-analysis of the deposited data

Results flagged for a closer look

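Ckap4 differed between the clusters in its change with the protocol, by the interaction test of edgeR (log2 interaction 3.22, adjusted p = 0.0145). All 3 libraries had Ckap4 higher in cluster 2, and the value rests on 42, 26 and 2 reads in cluster 1, where the shares of wells were near those of human wells. DESeq2 gave 3.27 with an adjusted p of 0.295.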

How the results depend on the processing

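No paired analysis was possible because the labels give no replicate numbers that the protocols share. The lack of pairing concerns the protocols only, since the clusters were compared with the library as a block. For the difference between clusters, 3 of 108 values of single members reversed and 4 were no longer past the threshold. Without the library as a block, edgeR called 2984 genes in place of 4562, and 3 members in place of 6 (P4hb, Pdia3 and Ckap4). Leaving out a library gave 3077 to 5077 genes and 5 to 6 members, log2 differences of -0.11 to 0.15 for Hspa5 and -0.0498 to 0.00502 for Pdia6. With each well thinned to 5000 reads, an alternative chosen after seeing the data, Pdia6 was at 0.19.

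For the protocols in cluster 1, UMI counts gave 911 genes in place of 1456, with Canx at -0.18 and Pdia6 at -0.12. DESeq2's size factors and thinned wells each called 1 member, Pdia4. Equal numbers of wells put Hsp90b1 at 0.0892 and P4hb at 0.0574. In cluster 2, DESeq2 and thinned wells each called 1 member, again Pdia4, and with UMI counts its log2 difference was 0.98 (edgeR adjusted p = 0.509). UMI counts put Canx at -0.16 and Pdia6 at -0.13, thinned wells put Hsp90b1 at 0.0589 and P4hb at 0.13, and Pdia3 ran from -0.67 to 0.20 when a 3'DE library was left out, which leaves no test. The share of called genes that were higher there was 32.3%, against 11.1% in DESeq2, 73.2% with UMI counts and 48.3% with thinned wells.

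For the interaction, DESeq2 called 49 genes, UMI counts 7 and thinned wells 138, in place of 286, and each called 0 members (1, 1 and 2 at an unadjusted p under 0.05). Canx was at -0.0248 in DESeq2, -0.0247 with its size factors, -0.0830 with UMI counts and -0.0463 with equal wells. P4hb was at 0.0046 with UMI counts and 0.16 in thinned wells, where Hsp90b1 was at 0.0074 and Pdia6 at 0.15. The cause of these changes was not tested. Assigning wells by marker reads was not run. In the 3'DE-UMI library depth limits what can be seen of Ckap4 in cluster 1 to the floor of 3 counts.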
